A study of Mus musculus with 15 samples.

Results

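The genes described here are 33 subunits of the receptors for glutamate and GABA in mouse thalamus, taken as a fixed list of gene symbols. The list was chosen with earlier results of these data known. All 33 were among the 29659 genes of every library, and all 33 passed the filter on low values. They comprise 4 AMPA receptor subunits (Gria1 to Gria4), 5 kainate receptor subunits (Grik1 to Grik5), 6 NMDA receptor subunits (Grin1, Grin2a to Grin2d and Grin3a), the delta receptor gene Grid1, 6 metabotropic glutamate receptors (Grm2, Grm3, Grm4, Grm5, Grm7 and Grm8), 9 GABA-A receptor subunits (Gabra2 to Gabra5, Gabrb1, Gabrb2, Gabrg1, Gabrg3 and Gabrd) and both GABA-B receptor subunits (Gabbr1 and Gabbr2).

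Glutamate opens AMPA, kainate and NMDA receptors, which are cation channels assembled from several subunits, and acts more slowly through metabotropic receptors coupled to G proteins. GABA opens GABA-A receptors, which are chloride channels, and acts through GABA-B receptors, which are G protein-coupled dimers. In the thalamus, relay neurons receive glutamate from sensory pathways and cortex and GABA from the reticular nucleus and local interneurons, and their extrasynaptic GABA-A receptors made with Gabra4 and Gabrd carry a steady inhibitory current.

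Bulk RNA-seq of polyA RNA was measured in 15 thalamus libraries from 4.5-month-old mice. All mice were homozygous for a human APOE4 knock-in, so that the controls carried it too. EL mice (n = 3) had an intact Lilrb4a gene and ELKO mice (n = 3) lacked it, both without the 5xFAD amyloid transgenes. 5EL mice (n = 5) carried 5xFAD with Lilrb4a intact, and 5ELKO mice (n = 4) carried 5xFAD without Lilrb4a, which encodes an inhibitory receptor of myeloid cells. The deletion was present in the whole animal and not in a single cell type. Samples were picked at random among mice, as the methods say, and the libraries with 5xFAD have an identifier each in the quality data, which include a further 5ELKO library that was not analysed here. The labels number the libraries as replicates without naming animals, so p-values measure the spread between libraries. The deposited values are on a log2 scale without read counts. Total reads exist for the libraries with 5xFAD but were not used here, and the depth of the EL and ELKO libraries is not given in the sources used here.

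The 7 libraries of ELKO and 5ELKO mice had Lilrb4a values of 2.33 or less and the 8 of EL and 5EL mice 2.34 or more, all close to the lower end of the scale. Slc17a6 and Tcf7l2, which mark thalamic relay neurons, were at 13.68 to 14.01 and 12.76 to 13.19. Neurod6 and Emx1, 2 of 12 listed markers of cortex and hippocampus, were at 3.27 to 3.52 and 1.44 to 1.54. Slc17a7 of the same list was at 11.79 to 12.61. The mean of the 11 list genes that passed the filter on low values was 7.90 to 8.41. Several libraries stood apart. Choroid plexus Ttr was at 13.71 in 5EL replicate 1 and 14.66 in ELKO replicate 2, against at most 10.31 elsewhere. Mouse Apoe was at 10.90 in ELKO replicate 1 and at 5.92 to 6.37 in the other libraries, which goes against the knock-in label of that library. EL replicate 3 had the lowest Gad1 value, 8.60, of 15 libraries, where the others had 9.37 to 11.90. The results that rest on these libraries are given with and without them.

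The GABA-B subunits had the highest levels of the 33 genes. The deposited log2 values of the 33 genes ran from 7.39 (Grm8 in EL replicate 3) to 14.84 (Gabbr1 in 5EL replicate 5). Levels were compared between genes as the deposited log2 value minus the log2 of the summed exon length in kb, averaged over 15 libraries, and differences between low genes may be understated because low values were drawn together on the deposited scale. Gabbr1, the subunit that binds GABA, had a level per kb of 11.77 ± 0.07 (SD, n = 15), and Gabbr2, the subunit that couples to G proteins, had 11.001 ± 0.10 (SD, n = 15). Gabbr1 lay above Gabbr2 in 15 of 15 libraries. At the other end, Grm8, a presynaptic group III metabotropic receptor, had a level per kb of 4.75 ± 0.24 (SD, n = 15), so that on the linear scale Gabbr1 was 130-fold above it. The median level per kb was 7.92 for the 33 genes and 6.38 for the 15285 genes tested that had an exon length.

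**Figure D1:**
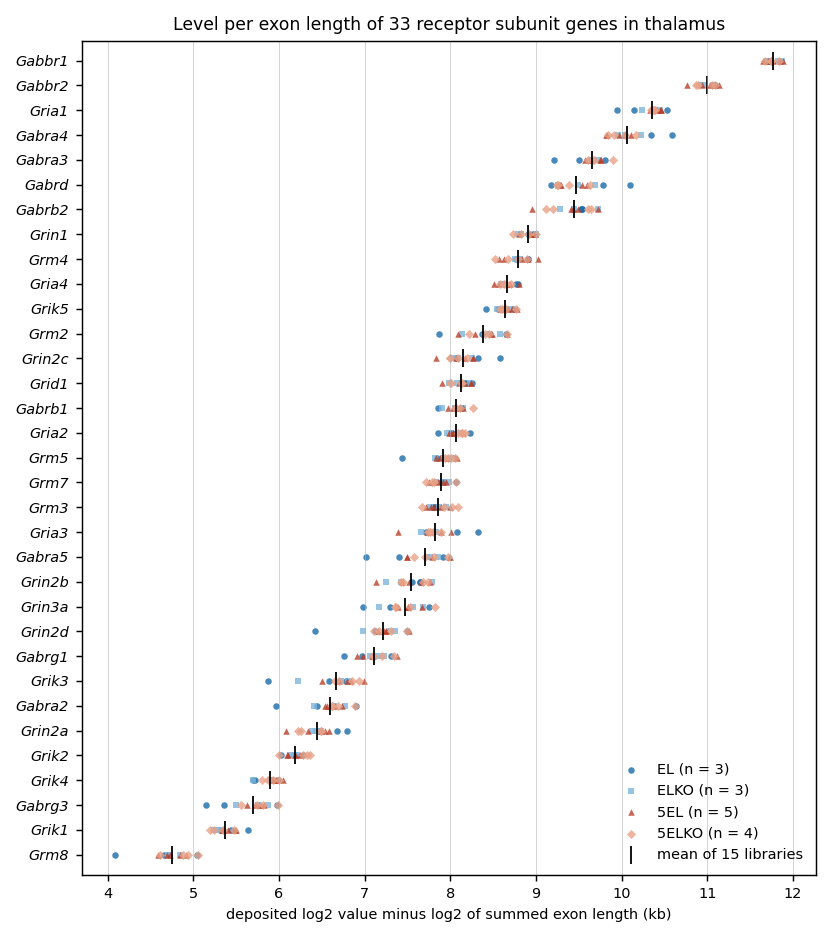
Level per exon length of each of the 33 genes, as deposited log2 value minus log2 of summed exon length in kb (x axis), in 15 libraries; symbols and colours mark the 4 genotype groups and black ticks the mean. Gabbr1 (11.77) and Gabbr2 (11.001) stand above all others, Grm8 (4.75) is lowest, and many neighbours in between overlap.

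Among the ionotropic glutamate receptors, Gria1, the AMPA subunit, led with a level per kb of 10.35 ± 0.15 (SD, n = 15), followed by Gria4 at 8.66, Gria2 at 8.06 and Gria3 at 7.83. Gria2 is the subunit whose edited form makes AMPA channels impermeable to calcium. The obligatory NMDA subunit Grin1 had a level per kb of 8.91 ± 0.09 (SD, n = 15), above Grin2c (8.15), Grin2b (7.54), Grin3a (7.47), Grin2d (7.21) and Grin2a (6.45). Grik5, a kainate subunit that needs a partner from Grik1 to Grik3, had 8.64, and the other 4 kainate subunits ranged from 5.37 (Grik1) to 6.66 (Grik3). Grid1, a delta receptor that takes part in synapse organisation, had 8.12 ± 0.11 (SD, n = 15). Gria1, Grin1 and Grik5 led their families whichever length was used, but the order behind them depended on it. Without a length correction the mean log2 value was 12.17 for Grin2b, close to Grin1 (12.19) and above Grin2c (10.48). Gria2 (12.02) then lay above Gria4 (11.31) and Gria3 (11.13). With the longest transcript as the length, Gria3 lay above Gria2 and Grin3a above Grin2b. Because counting ignored strand, reads of antisense neighbours could not be told apart for Grin1, where 13.5% of exon bases overlap exons of Grin1os, or for Grin2d and Grm2, where 9.66% and 9.60% overlap exons of other genes.

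Among the metabotropic receptors, Grm4 had the highest level per kb, 8.79 ± 0.14 (SD, n = 15). Grm2, Grm5, Grm7 and Grm3 followed with 8.39, 7.92, 7.89 and 7.86, and the last 3 of these did not keep a fixed order across libraries. Of the GABA-A subunits, the alpha subunits Gabra4 (10.06 ± 0.21) and Gabra3 (9.65 ± 0.16) and then Gabrd (9.46 ± 0.26) and Gabrb2 (9.44 ± 0.22) had the highest levels per kb (SD, n = 15 each). Gabrd lay above Gabrb2 in 8 of 15 libraries, so their order was not settled. Gabrb1 had 8.07, Gabra5, an alpha subunit best known from extrasynaptic receptors of hippocampal pyramidal cells, 7.70, and Gabrg1, Gabra2 and Gabrg3 7.11, 6.60 and 5.69. Grm4 and Gabra4 led their families whichever length was used, but the order behind them depended on it. Without a length correction the mean log2 values of Gabrb2 (12.11) and Gabrb1 (11.86) lay above those of Gabra3 (11.62) and Gabrd (10.99). That of Grm5 (11.27) lay above that of Grm2 (10.68). With the longest transcript as the length, Gabrb2 lay above Gabra3 and Gabrd. Of the 32 pairs of neighbours in the order of all 33 genes, 8 kept their order in 15 of 15 libraries. The 10 highest genes shared 9 or 10 members with this list when each library was left out in turn, 9 when the longest transcript gave the length and 7 without a length correction.

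The levels of these genes varied more between libraries of a group than those of most genes at or above the level of the lowest of them. The median pooled within-group SD of the 33 genes was 0.154 on the log2 scale, against 0.0988 over the 9001 genes tested whose mean level was at or above that of the lowest of them, and 28 of the 33 were above that median. In a principal component analysis of the 33 genes, component 1 held 63.2% of their variance over 15 libraries. EL replicate 3 had a score of 2.35 on it and the other 14 libraries had -0.81 to 0.76, and without EL replicate 3 component 1 held 42.2%. The sign of the loading was the same in both analyses for 30 of the 33 genes. In EL replicate 3, 15 of the 33 genes had their lowest value of all libraries and 7 their highest. In 5EL replicate 3, 10 had their lowest value and 2 their highest.

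The genes with the largest positive loadings on component 1 were Gabrd, Gria3, Gabra4, Grin2c and Grin2a, and those with the largest negative loadings were Grin2d, Gabra5, Gabra2, Grm8 and Grik3. Gabrd had log2 values of 10.70, 11.30 and 11.62 in the EL libraries, 11.01, 10.78 and 11.21 in ELKO, 10.82, 10.81, 10.78, 11.06 and 11.13 in 5EL and 11.15, 10.90, 10.78 and 10.77 in 5ELKO. Both its lowest and its highest value were in EL mice, and all 4 groups overlapped. Gabra5 had 9.49, 8.97 and 8.58 in EL, 9.30, 9.43 and 9.34 in ELKO, 9.56, 9.36, 9.56, 9.07 and 9.06 in 5EL and 9.15, 9.55, 9.28 and 9.38 in 5ELKO. It ran opposite to Gabrd: the difference between the log2 values of Gabrd and Gabra5 went from 1.21 in EL replicate 1 to 3.04 in EL replicate 3. The other 13 libraries had differences between these values.

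**Figure D2:**
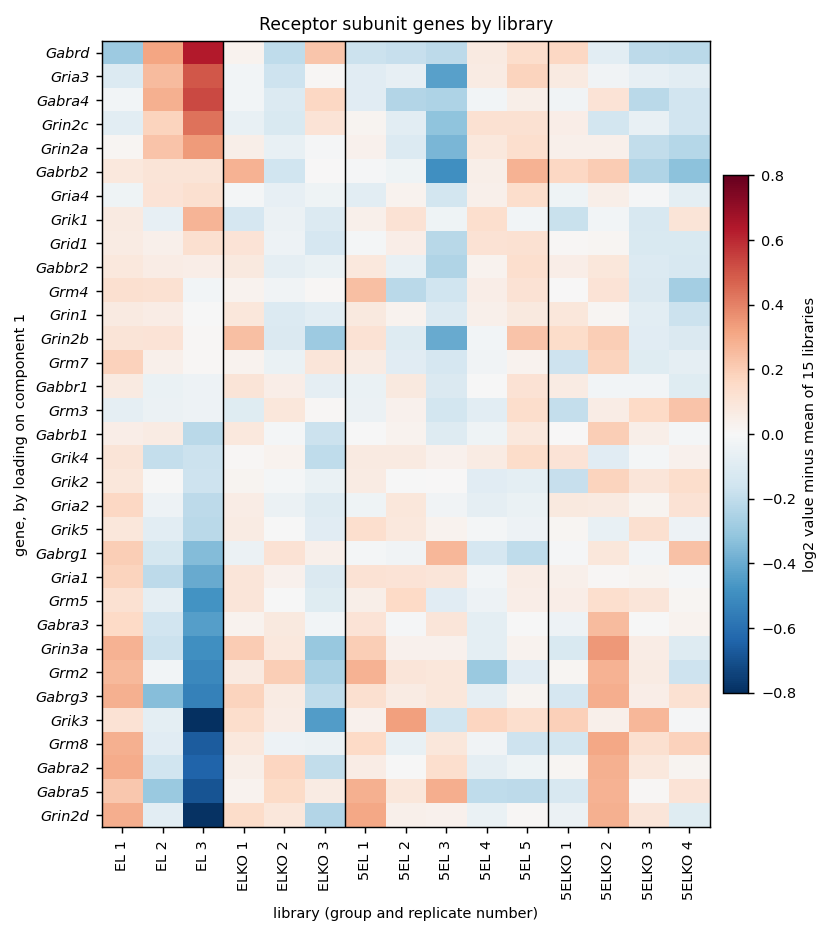
Log2 value of each gene minus its mean over 15 libraries (colour), by library (columns, grouped by genotype) and gene (ordered by loading on component 1). EL replicate 3 has the strongest contrast between the genes at the top, such as Gabrd and Gabra4, and those at the bottom, such as Grin2d and Gabra5.

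Some neighbouring GABA-A genes varied together and others did not. Gabra5 (GRCm38 chr7:57407672-57510059, minus strand) and Gabrg3 (chr7:56716465-57387188, minus strand) lie 20.5 kb apart, and their values had r = 0.85 over 15 libraries, or 0.73 without EL replicate 3, a description over libraries that share dissection and depth. Gabra2 (chr5:70957597-71095849) and Gabrg1 (chr5:70751047-70842617), both on the minus strand with a gap of 115 kb, had r = 0.75, or 0.58 without EL replicate 3. Gabra4 (chr5:71569749-71658308, minus strand) and Gabrb1 (chr5:71658113-72149037, plus strand) overlap head to head by 196 bases, and their r was -0.29, or 0.20 without that library. Gabra4 followed Gabrd, its partner in extrasynaptic receptors, with r = 0.89, or 0.78 without EL replicate 3. Over all pairs of the 33 genes the highest r was 0.95, for Gabra2 with Gabra3, and the lowest -0.90, for Gria3 with Gabra5, or 0.87 and -0.82 for these pairs without EL replicate 3.

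Promoter windows from RefSeq (GRCm38.p6) were found for 23 of the 33 genes, 30 windows in all, of 250 bases before to 50 after a transcript start. The GC box (GGGCGG or its complement CCGCCC) was present in 16 of the 30 windows and in 35.7% of the 32851 windows of all genes. CTTTGAT, the TCF/LEF core, was found in 1 member window (Gabrb2) and in 3.73% of all, the NRF1 motif in 1 (Gabrb1) and 0.971%, and the CRE TGACGTCA and the EGR motif GCGTGGGCG in 0 and in 1.79% and 0.612% of all; both strands were searched, and a match is a description and not a site. The 250 bases before the start are shown for Gabra2 and Gabra5, which varied together, and for Grin2c, which varied in the opposite direction, with GC boxes in capitals and 5′ to 3′ on the strand of the gene. The Gabra2 window is chr5:71095850-71096099, the Gabra5 window chr7:57510060-57510309 and the Grin2c window chr11:115267244-115267493, all GRCm38.p6 and minus strand.
Gabra2: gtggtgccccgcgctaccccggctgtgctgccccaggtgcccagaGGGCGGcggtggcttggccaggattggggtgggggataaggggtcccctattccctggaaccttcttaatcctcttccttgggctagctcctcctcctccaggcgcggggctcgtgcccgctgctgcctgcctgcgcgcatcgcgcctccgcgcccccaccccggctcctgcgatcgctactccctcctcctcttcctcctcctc
Gabra5: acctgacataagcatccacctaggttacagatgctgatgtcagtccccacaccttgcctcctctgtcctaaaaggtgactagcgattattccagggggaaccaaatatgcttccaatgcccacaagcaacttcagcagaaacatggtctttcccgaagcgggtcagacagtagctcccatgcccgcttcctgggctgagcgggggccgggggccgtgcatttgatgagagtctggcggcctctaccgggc
Grin2c: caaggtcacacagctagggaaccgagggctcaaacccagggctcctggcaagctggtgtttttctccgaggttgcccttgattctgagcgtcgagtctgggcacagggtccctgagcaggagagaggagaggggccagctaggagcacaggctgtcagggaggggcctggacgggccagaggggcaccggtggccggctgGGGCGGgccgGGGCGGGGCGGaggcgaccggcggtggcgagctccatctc
Gabra2 held 1 GC box, Grin2c held 3, of which 2 overlap, and Gabra5 held none of the 5 motifs.

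The comparison of 5ELKO with 5EL asked what loss of Lilrb4a did to thalamic transcripts in amyloid-bearing mice. A gene is said to pass the nominal threshold where its limma p, not adjusted, was under 0.05, which is where its 95% interval did not hold 0. Of the 33 genes, 1 passed it and 0 passed after adjustment (limma with Benjamini-Hochberg adjustment over 15743 genes), where 2.49% and 0.0191% of all genes tested did. That gene was Gria2, with log2 values of 11.99, 12.11, 11.99, 11.95 and 11.97 in 5EL and 12.10, 12.10, 12.05 and 12.13 in 5ELKO. The 5ELKO libraries lay above 4 of the 5 5EL libraries, and 5EL replicate 2 lay among them. The difference was 0.09 (SE 0.04), 1.07-fold, with an adjusted p = 0.999 by limma with Benjamini-Hochberg adjustment. The two-sided exact permutation test gave p = 0.0635 with all 9 libraries and p = 0.0286, the smallest it can give for 4 against 4, without 5EL replicate 2. As each of the 9 libraries was left out, Gria2 passed the nominal threshold without 5EL replicate 2 or 5ELKO replicate 3 and in none of the other fits. The count of the 33 genes was 3 without 5ELKO replicate 1, 2 without 5EL replicate 3, 1 without 5EL replicate 2, 5ELKO replicate 3 or 5ELKO replicate 4, and 0 without any other. The share of all genes tested that passed in these fits is not given here, so the counts cannot be set against it.

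The largest differences that did not pass, each larger in size than that of Gria2, were those of Grm8 (0.12, SE 0.09), Grik1 (-0.10, SE 0.07) and Gabrg1 (0.10, SE 0.09), with exact permutation p-values of 0.302, 0.159 and 0.381. Of the 33 differences 17 were above 0 and 16 below, with a median difference of 0.0022, against 0.0016 over all genes tested. By family, 7 of the 9 GABA-A subunits were above 0, with a median of 0.04, and 4 of the 6 NMDA subunits and both GABA-B subunits were below. The 95% intervals of the 33 genes lay within -0.32 (Gabrb2) and 0.32 (Grm8), from 0.800-fold to 1.25-fold. No gene of the 33 had groups that did not overlap, where 1.06% of all genes tested had. In the same comparison 11 of 14 hepatocyte markers passed the nominal threshold as higher in 5ELKO, and 2 of them were among the 3 genes that passed after adjustment by limma. Their mean was 5.35 to 5.79 in 5ELKO and 5.05 to 5.57 in 5EL, with Alb at 7.22 to 8.38 and 5.77 to 6.55, and their part in the differences of the 33 genes was not tested. The intervals reached a median of 0.167 to either side of the difference, so that smaller differences were mostly not detectable with 5 and 4 libraries.

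The comparison of 5EL with EL asked what 5xFAD did with Lilrb4a intact. Of the 33 genes, 5 passed the nominal threshold, 2 higher and 3 lower in 5EL, and 0 passed after adjustment over 15804 genes by limma with Benjamini-Hochberg adjustment. Of all genes tested, 7.7% passed the nominal threshold, 3.82% as higher and 3.88% as lower, and 3.26% had groups that did not overlap, as 0 of the 33 genes had. EL is 1 of the 2 smallest groups and holds EL replicate 3, so the libraries whose removal ended a call are named beside each gene.

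**Figure D3:**
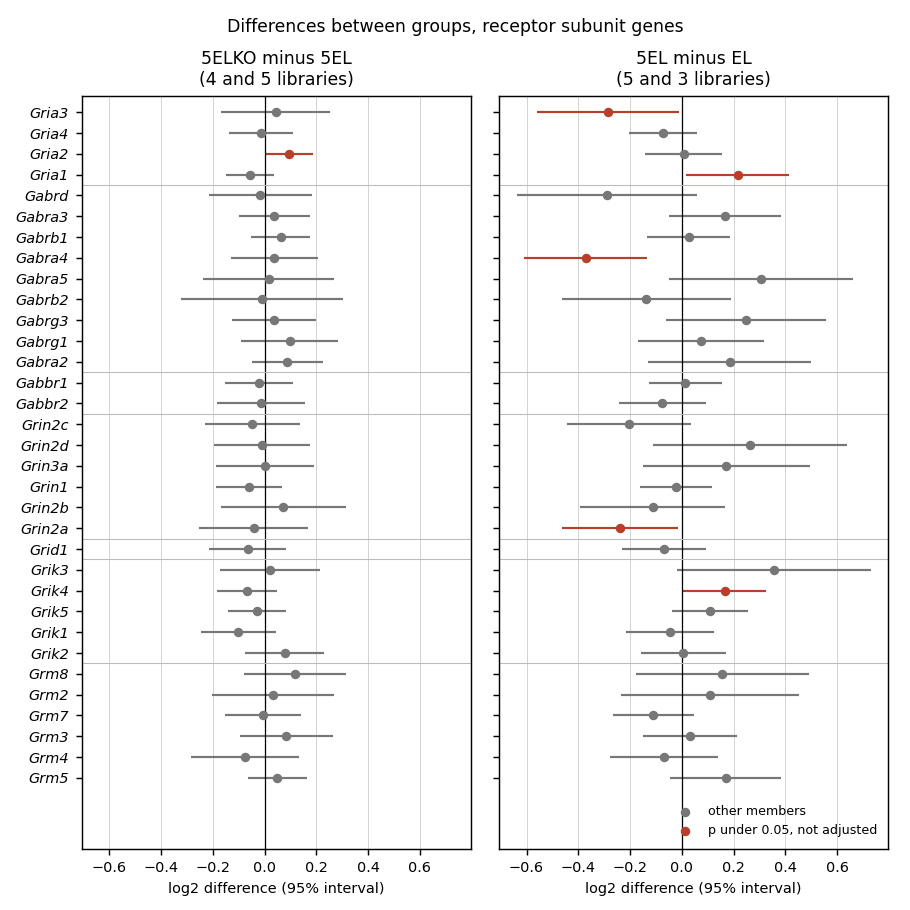
Log2 difference of each gene between 5ELKO and 5EL (left) and between 5EL and EL (right), with 95% intervals from limma; lines separate the receptor families and red marks genes past the nominal threshold. The intervals on the left lie within -0.32 and 0.32; those on the right are wider, and Gabra4 (-0.37) is the farthest from 0.

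Gabra4 had log2 values of 12.64, 12.95 and 13.19 in EL, 12.65, 12.56 and 12.83 in ELKO, 12.58, 12.43, 12.42, 12.64 and 12.72 in 5EL and 12.64, 12.78, 12.45 and 12.51 in 5ELKO. EL replicates 2 and 3 were above every library of the other groups, and EL replicate 1 was among the 5EL libraries. The difference 5EL minus EL was -0.37 (SE 0.11), 0.773-fold, with a 95% interval of -0.61 to -0.13 and an adjusted p = 0.63 by limma with Benjamini-Hochberg adjustment. By the two-sided exact permutation test p was 0.0714, where 0.0179 is the smallest it can give. Leaving out each library in turn gave -0.51 to -0.24, past the nominal threshold in 15 of 15 fits, the smallest difference without EL replicate 3 and the largest without EL replicate 1.

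**Figure D4:**
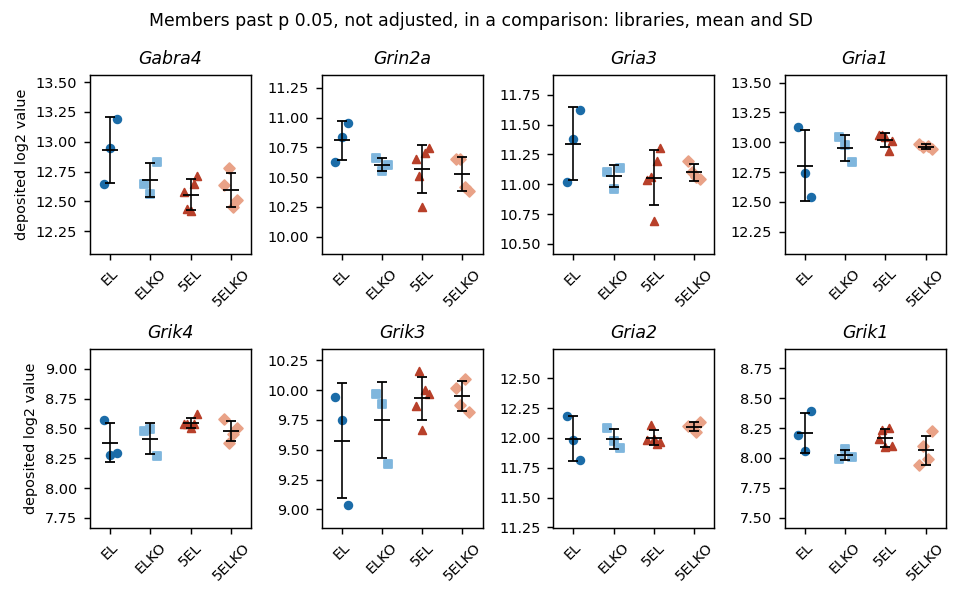
Deposited log2 values of the 8 genes that passed the nominal threshold in at least 1 comparison, by genotype group; points are libraries, and bars show mean and SD. Every panel spans 1.5 log2 units, and the groups overlap in each.

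AMPA subunits passed in both directions. Gria1 had 13.13, 12.74 and 12.54 in EL, 13.05, 12.98 and 12.83 in ELKO, 13.06, 13.06, 13.05, 12.93 and 13.01 in 5EL and 12.99, 12.96, 12.97 and 12.94 in 5ELKO. EL held both the highest and the lowest value, and the difference 5EL minus EL was 0.22 (SE 0.09, adjusted p = 0.63 by limma with Benjamini-Hochberg adjustment). The exact permutation p was 0.214. The difference did not pass without 5EL replicate 1, 2, 3 or 5 or EL replicate 2, or without EL replicate 3, when it was 0.09, and without EL replicate 1 it was 0.38 with an adjusted p of 0.0444, the only adjusted p under 0.05 of the 33 genes in any comparison or alternative. Gria3, an X-linked AMPA subunit, had 11.02, 11.38 and 11.63 in EL, 11.10, 10.96 and 11.13 in ELKO, 11.03, 11.06, 10.69, 11.19 and 11.30 in 5EL and 11.20, 11.10, 11.06 and 11.04 in 5ELKO. Its difference was -0.29 (SE 0.13, exact permutation p = 0.214). It did not pass without 5EL replicate 1, 2 or 3 or EL replicate 2, or without EL replicate 3, when it was -0.14. EL replicate 1 lay among the 5EL libraries for Gria3 and above them for Gria1.

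The NMDA subunit Grin2a had 10.63, 10.84 and 10.96 in EL, 10.66, 10.55 and 10.60 in ELKO, 10.65, 10.51, 10.25, 10.70 and 10.75 in 5EL and 10.65, 10.65, 10.42 and 10.39 in 5ELKO. The 5EL minus EL difference was -0.24 (SE 0.11, exact permutation p = 0.143). EL replicates 2 and 3 were above all libraries of the other groups. The difference did not pass without 5EL replicate 2, 5EL replicate 3, EL replicate 2 or EL replicate 3. The kainate subunit Grik4 had 8.57, 8.28 and 8.29 in EL, 8.48, 8.50 and 8.27 in ELKO, 8.54, 8.54, 8.50, 8.53 and 8.62 in 5EL and 8.58, 8.38, 8.45 and 8.50 in 5ELKO. EL replicate 1 lay among the 5EL libraries and the other 2 EL libraries below them, and the difference was 0.17 (SE 0.08, exact permutation p = 0.179). The difference was 0.11 without EL replicate 2 and 0.12 without EL replicate 3, and it passed in neither of these fits, nor when replicate 1, 2, 4 or 5 of 5EL or replicate 3 or 4 of 5ELKO was left out. The largest differences of genes that did not pass were those of Grik3 (0.36, SE 0.18), Gabra5 (0.31, SE 0.17) and Gabrd (-0.29, SE 0.16), each with an exact permutation p of 0.25.

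How many of the 33 genes passed in 5EL against EL turned on single EL libraries. Without EL replicate 1, 17 of the 33 passed, 12 higher and 5 lower, while the share of all genes tested that passed went to 20.3%. Without EL replicate 3, 1 passed, which was Gabra4, and 2.25% of all genes did. The count was 2 without 5EL replicate 1 or without EL replicate 2, 1 without 5EL replicate 2 and 3 without 5EL replicate 3. It was 2 without the libraries rich in choroid plexus transcripts, an alternative chosen after seeing the data. For these other fits the share of all genes tested is not given here, so their counts cannot be set against it. The EL libraries were also far apart in markers of other cells. The mean log2 value of 10 GABAergic and reticular nucleus markers was 7.22 to 8.36 in EL and 7.73 to 8.92 in 5EL, 4 of the 10 passed as higher in 5EL, and 6 of 12 thalamic relay markers passed as lower. The mean of 3 erythroid markers was 5.15 to 6.93 in EL, highest in EL replicate 3, and 4.97 to 5.32 in 5EL, and 2 of the 3 passed as lower in 5EL. Of 9 amyloid-associated microglia markers 8 passed as higher in 5EL, with means of 6.54 to 6.56 in EL and 6.68 to 7.27 in 5EL. The hepatocyte gene Alb was at 8.59 in EL replicate 1, the highest of 15 libraries, and at 5.75 and 5.91 in the other EL libraries. The defining genes Gad1, Gad2 and Slc32a1 were at 7.37 or more in every library. In bulk tissue, fewer cells of a type and less RNA per cell cannot be told apart, and the part of these markers and of the dissection in the differences was not tested.

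Averaged over both Lilrb4a genotypes, 5xFAD against no 5xFAD had 2 of the 33 genes past the nominal threshold and 0 after adjustment (limma, 15804 genes). Of all genes tested 6.57% passed it, 3.56% as higher and 3.01% as lower. The difference for Gabra4 was -0.23 (SE 0.08, adjusted p = 0.693 by limma with Benjamini-Hochberg adjustment), with differences of -0.30 to -0.16 as each library was left out. That of Grik3 was 0.28 (SE 0.13, adjusted p = 0.693 by limma). Grik3, a kainate subunit, had 9.94, 9.75 and 9.03 in EL, 9.97, 9.89 and 9.38 in ELKO, 9.86, 10.16, 9.67, 10.002 and 9.96 in 5EL and 10.02, 9.87, 10.10 and 9.82 in 5ELKO. Only EL replicate 3 and ELKO replicate 3 lay below all libraries with 5xFAD, and the difference was 0.14 without the first and 0.19 without the second, and passed in neither fit, nor when replicate 2, 4 or 5 of 5EL or replicate 1 or 3 of 5ELKO was left out. The largest differences that did not pass were Gabrd (-0.20, SE 0.12), Grin2d (0.16, SE 0.13) and Grin2a (-0.16, SE 0.08). In the same contrast 9 of the 10 GABAergic and reticular nucleus markers passed as higher with 5xFAD, with a median difference of 0.62, and 0 of the 12 relay markers passed; the part of that shift in Gabra4 and Grik3 was not tested. The count was 18 without EL replicate 1, where 17.3% of all genes tested passed, and 5 without 5ELKO replicate 2 (6.68%). It was 3 without ELKO replicate 1 or ELKO replicate 2, and 1 without 5EL replicate 2, 5ELKO replicate 3, EL replicate 3 or ELKO replicate 3. The share for the fits with a count of 3 or 1 is not given here.

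Without Lilrb4a, 5ELKO against ELKO had 0 of the 33 genes past the nominal threshold and 0 after adjustment by limma, where 2.37% of all genes tested passed the first and 3.4% had groups that did not overlap. The 95% intervals of the 33 genes lay within -0.47 (Gabrd) and 0.60 (Grik3). The largest differences were Grik3 (0.20, SE 0.18), Grm8 (0.12, SE 0.16) and Gria2 (0.10, SE 0.07). For Gabra4, which passed in 5EL against EL, the test of the difference between both 5xFAD effects was the interaction of deletion and 5xFAD, and it gave 0.29 (SE 0.16, 95% interval -0.06 to 0.63), which did not pass. None of the 33 genes passed that interaction, where 2.73% of all genes tested did, and the other largest values, both larger in size than that of Gabra4, were those of Gabra5 (-0.32, SE 0.24) and Gria3 (0.32, SE 0.19). The interaction count was 7 without EL replicate 1, where 7.77% of all genes tested passed, and 1 without EL replicate 3 (2.17%) or ELKO replicate 3 (5.38%).

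Deletion of Lilrb4a without 5xFAD, ELKO against EL, had 0 of the 33 genes past the nominal threshold and 0 after adjustment by limma, where 2.35% and 0% of all genes tested passed and 4.59% had groups that did not overlap. The 95% intervals of the 33 genes lay within -0.59 (Gabrd) and 0.73 (Gabra5). The exact permutation test cannot give a p under 0.1 for 3 against 3 libraries. The largest differences were Gabra5 (0.34, SE 0.19), Gria3 (-0.28, SE 0.14) and Gabra4 (-0.25, SE 0.12), with exact permutation p-values of 0.4, 0.3 and 0.3. EL and ELKO libraries of the same number varied alike, but replicates 1 and 2 did so whichever way they were matched. Whether the number pairs libraries is therefore open. With that number as a block 3 genes passed the nominal threshold, all lower in ELKO, with an adjusted p of 0.816 by limma. They were Gabra4 (-0.25, SE 0.09), Gria3 (-0.28, SE 0.11) and Grik1 (-0.19, SE 0.08). In the same blocked fit 3 genes passed the interaction, Gabra4 (0.33, SE 0.12), Gria3 (0.38, SE 0.15) and Gria1 (-0.21, SE 0.09), with an adjusted p of 0.956 by limma. The share of all genes tested that passed in the blocked fit is not given here, so these counts cannot be set against it. The count for ELKO against EL was 16 without EL replicate 1, where 11.6% of all genes tested passed. It was 2 without 5EL replicate 3, and 1 without 5ELKO replicate 1, 5ELKO replicate 4, EL replicate 2 or ELKO replicate 3, and it stayed at 0 without ELKO replicate 1. The share for the fits with a count of 2, 1 or 0 is not given here.

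Averaged over mice with and without 5xFAD, the deletion had 1 of the 33 genes past the nominal threshold, Grik1, and 0 after adjustment by limma, where 1.8% of all genes tested passed the first. Grik1, a kainate subunit, had 8.19, 8.06 and 8.39 in EL, 7.99, 8.07 and 8.01 in ELKO, 8.16, 8.24, 8.09, 8.25 and 8.10 in 5EL and 7.94, 8.10, 7.99 and 8.22 in 5ELKO. The libraries with and without Lilrb4a overlapped both with and without 5xFAD. The difference was -0.15 (SE 0.06, adjusted p = 1 by limma with Benjamini-Hochberg adjustment), and -0.10 without EL replicate 3, when it did not pass. The largest differences that did not pass were Gabra5 (0.18, SE 0.12), Grm8 (0.14, SE 0.11) and Gabra2 (0.13, SE 0.11). The count was 15 without EL replicate 1, where 7.82% of all genes tested passed, and 4 without 5EL replicate 3 (1.94%). It was 2 without 5ELKO replicate 1 or ELKO replicate 1, and 0 without EL replicate 3, fits whose share is not given here. These comparisons share libraries, so that their results are not independent of each other.

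Genes that work with these receptors were followed in 6 lists, of which 80 genes were tested. In 5ELKO against 5EL, 1 passed the nominal threshold as higher, the postsynaptic scaffold gene Dlgap1 (0.15, SE 0.05), and 1 as lower, Gsg1l, which encodes an AMPA receptor auxiliary subunit (-0.25, SE 0.11). Of all genes tested 2.49% passed in that contrast. In 5EL against EL, 6 passed as higher and 4 as lower, among them the scaffold genes Dlg1 (0.21, SE 0.09) and Dlg2 (0.28, SE 0.13), the GABA-synthesising enzyme Gad2 (1.03, SE 0.46) and the GABA-B partner Kctd8 (0.61, SE 0.27) as higher, and Olfm3 (-0.27, SE 0.09), the glycine receptor subunit Glrb (-0.17, SE 0.08) and the glutamate transporter Slc1a1 (-0.22, SE 0.09) as lower. Of all genes tested 7.7% passed there, 3.82% as higher and 3.88% as lower. The SD of these named genes over the EL libraries ran from 0.17 (Glrb) to 1.23 (Gad2). For 5xFAD averaged over both Lilrb4a genotypes the counts were 6 and 2, for ELKO against EL 0 and 1, and for the interaction 2 and 0. In these 3 contrasts 6.57%, 2.35% and 2.73% of all genes tested passed. In 5ELKO against ELKO and for the deletion averaged over mice with and without 5xFAD, 0 of the 80 passed in either direction, where 2.37% and 1.8% of all genes tested did. None of the 80 passed after adjustment in any of the 7 contrasts by limma. The list of other subunits of the same receptor families had 9 genes tested, of which 1 passed as higher and 1 as lower in 5EL against EL and 0 in 5ELKO against 5EL.

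Across libraries, several of the 33 genes followed markers of other cells or regions. Each gene was correlated with the mean log2 value of 5 marker lists over 15 libraries, 165 pairs in all. By Pearson's r, 25 pairs had a Benjamini-Hochberg adjusted permutation p under 0.05, 14 of them with the cortex and hippocampus list, by Spearman's rho 8 did, and on deviations from the group means 0 did. The share of all genes tested that would pass against these lists is not given here. These counts therefore do not show a trait particular to the 33 genes. Gabra4 was negatively correlated with the GABAergic and reticular nucleus list, with r = -0.72 (permutation p = 0.00383, adjusted 0.0316) and rho = -0.60 (p = 0.0203, adjusted 0.129), and r was -0.65 without EL replicate 3 and 5EL replicate 1, the libraries farthest from the median score. Gabra4 was positively correlated with the relay neuron list, with r = 0.73 (p = 0.00177, adjusted 0.0233) and rho = 0.81 (p = 0.00046, adjusted 0.019), and r was 0.72 without the 2 farthest libraries. Grik3 had r = 0.81 with the GABAergic list (p = 0.0011, adjusted 0.0233), rho = 0.66 (p = 0.0083, adjusted 0.0784) and r = 0.74 without the same libraries.

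**Figure D5:**
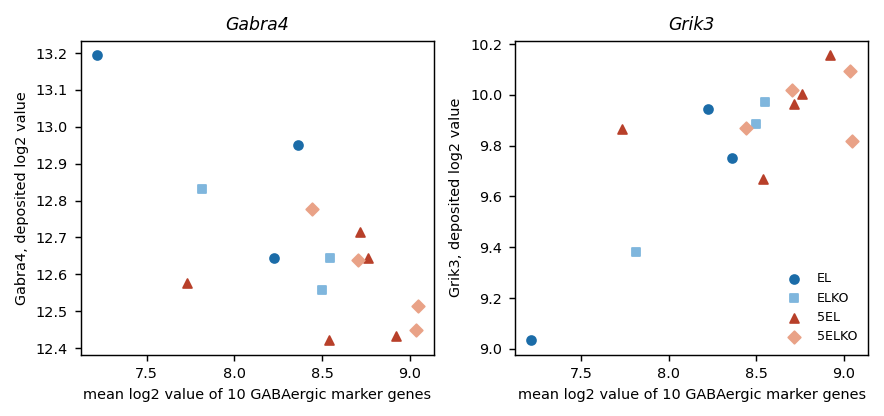
Deposited log2 values of Gabra4 (left) and Grik3 (right) against the mean log2 value of 10 GABAergic and reticular nucleus markers in each of 15 libraries, by genotype group. EL replicate 3, with the lowest marker value (7.22), has the highest Gabra4 (13.19) and the lowest Grik3 (9.03).

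With the cortex and hippocampus list, Grik3 had r = 0.93 and the metabotropic receptor Grm5 r = 0.90 (adjusted permutation p = 0.00247 each), with rho of 0.84 and 0.85 (adjusted p = 0.0157 each), and r was 0.74 and 0.78 without EL replicate 3 and ELKO replicate 3. For the other 12 pairs of that list r went to 0.20 to 0.55 in size without these libraries, so they rest on them. Without ELKO replicate 3 the count of 25 pairs went to 2, without EL replicate 3 to 9, and the other libraries gave 18 to 37. Of that list, Neurod6 and Emx1 were near the floor in every library, as given above. Slc17a7 was at 11.79 to 12.61, with its highest value in EL replicate 3, where the mean of the list was lowest (7.90). Whether that mean follows cortex or hippocampus tissue in these libraries was not tested.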

How the data were processed

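Reads were trimmed by the authors with Trimmomatic 0.39, mapped with HISAT2 2.2.1 to GRCm38, counted read pairs in exons by gene name without strand with featureCounts 2.0.3 and analysed them with DESeq2 1.38.3. The values the authors deposited are log2 values for 29659 genes per library, and the transform and annotation are not given in the sources used here. The files hold no counts, and the read totals that the study gives for 5EL and 5ELKO were not used, so no counting interval was made. Genes at a log2 value of at least 3.32 in 4 of 9 libraries (5ELKO against 5EL) or 3 of 15 (other contrasts) were tested with limma 3.58.1 (R 4.3.3), using a mean-variance trend and Benjamini-Hochberg adjustment over all genes tested. Single genes were also compared by two-sided exact permutation tests, and correlations used 100000 permutations (scipy 1.17.1). The fit was tested on simulated data. Exon lengths came from GENCODE for GRCm38. The genes and lists were chosen with earlier results of these data known. Genes past the nominal threshold of 0.05 were named with their values in every library, and beside them the 3 largest differences that did not pass. The other subunits of these families are given by counts only. Same-numbered EL and ELKO libraries had correlated deviations from their group means (r of 0.325 to 0.742 over 3 pairs). However, EL replicate 1 with ELKO replicate 2 had r = 0.376, and EL replicate 2 with ELKO replicate 1 had 0.295. Whether the replicate number pairs libraries is therefore open, and the labels do not say what it marks. Alternatives were other filters, variance priors and centring, covariates, the replicate block and leaving out each library.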

Additional observations from a re-analysis of the deposited data

Results flagged for a closer look

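Of 66 checks of a gene in a group of 4 or 5 libraries, 2 found a library far from the rest of its group. That is a smaller share than the 1 in 20 or so that chance gives. Gria2 in 5EL replicate 2 was at 12.11, and the other 5EL libraries were at 11.95 to 11.99, so that its gap to the nearest of them was 0.724 of the range of the group. Grin2d in 5EL replicate 1 was at 10.26, against 9.90 to 9.99 in the others, with a gap of 0.743 of the range. That library also had Ttr at 13.71, and the part of choroid plexus tissue in the Grin2d value was not tested.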

How the results depend on the processing

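The differences of the 8 genes past the nominal threshold, each in the comparisons where it passed, kept their sign under every alternative run. The other differences named were not followed through the alternatives. The count of the 33 genes past the nominal threshold in 5ELKO against 5EL was 1, and 0 with a variance prior without a trend, a robust prior, the cortex and hippocampus score as a covariate, a single fit of all 15 libraries, the replicate block, or without the choroid-rich libraries (chosen after seeing the data). Leaving out each library gave 0 to 3. For ELKO against EL it was 0, and 1 with no filter, a stricter filter, either other variance prior, recentred libraries or the Xist level as a covariate, and 0 to 16 as each library was left out. Xist was at 0.17 to 0.31 in all 15 libraries, far below the filter on low values, so the Xist covariate is a weak check. For 5EL against EL it was 5, and 1 with the cortex and hippocampus covariate, 2 without the choroid-rich libraries and 1 to 17 with each library left out. For 5xFAD over both genotypes it was 2, and 1 with either covariate, 3 with either other variance prior or without the choroid-rich libraries and 1 to 18 with each library left out. For the deletion it was 1, and 0 to 15 with each library left out, for 5ELKO against ELKO 0, and 0 to 1, and for the interaction 0, 1 with the cortex and hippocampus covariate and 0 to 7. With the replicate number as a block, which is not known to pair libraries, the count was 3 in ELKO against EL and 3 in the interaction. It was 6 in 5EL against EL, whose same-numbered libraries correlated at 0.05 to 0.23. For the blocked fits the share of all genes tested is not given here, so these counts cannot be set against it. For 5ELKO against 5EL the same numbers correlated at -0.24 to 0.14. The 25 marker correlations became 0 on deviations from group means, 8 by Spearman's rho, and 2 to 37 as each library was left out. The exact permutation tests kept their direction, with differences of 0.08 to 0.12 for Gria2 and -0.51 to -0.24 for Gabra4. Except where a share of all genes tested is given above, these counts cannot be set against it. Whether the 33 genes shifted more than other genes is therefore not shown. The cause of these shifts was not tested. With 3 to 5 libraries a group and no read counts, neither counting error nor small differences could be resolved.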
